A study of Mus musculus with 768 samples.

Results

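Natural killer (NK) cells integrate activating signals, carried by tyrosine kinases, with signals from inhibitory receptors whose tails recruit phosphatases. Ptpn6 (SHP-1) and Ptpn11 (SHP-2) are tyrosine phosphatases that bind such tails, and Inpp5d (SHIP-1) removes a phosphate from the membrane lipid made by PI3 kinase. Cish, Socs1 and Socs3 are members of the SOCS family, which cytokine receptors induce through JAK and STAT proteins and which in turn restrain those receptors. Cblb is a ubiquitin ligase that dampens antigen and activating receptor signaling, and Dgka and Dgkz are kinases that convert diacylglycerol, the lipid that activates the Ras pathway, to phosphatidic acid. These 9 genes were chosen by name. All 9 were found, each as 1 of 24490 gene entries of the deposited tables and each among the 14761 entries above 0 in at least 3 wells.

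The cells were tumor-infiltrating NK cells from C57BL/6 mice (WT) and from C57BL/6, PDCD-1(PD-1)-/- mice (PD-1-/-), a germline deletion, and both kinds of mice carried MTAP1A, a fibrosarcoma clone with little MHC class I that arose in a Tap1-deficient mouse. The mice were matched for sex and age, and the recipients were male. Single cells in a gate that was NK1.1+ and CD3- were sorted from the pooled tumors of 3 mice of each genotype, into 1 plate per genotype and 768 wells in all, and read by SMART-Seq2, a full-length single-cell RNA-seq method. With 1 pool on 1 plate per genotype, genotype, pool and plate cannot be told apart. Cells of a pool are not replicates, so differences between genotypes carry no p-value, and the exact (Clopper-Pearson) 95% intervals below cover counting error only.

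Wells with 1000 to 3500 genes above 0 were kept, which left 726 cells, 360 of them WT and the rest PD-1-/-, with a median of 2264.5 and 2262.5 genes and of 335256 and 354598 recovered reads. NK markers were at hand in both pools, as Ncr1 was above 0 in 90.8% and 91.8% of cells and Klrb1c, which encodes NK1.1, in 96.1% and 97%. Of the other cell types the gate could hold, B cell, myeloid, neutrophil and fibrosarcoma markers were each above 0 in at most 6.39% of the cells of a genotype. Of the T cell markers, Cd3d was above 0 in 14.4% and 16.9%, Cd3e in 7.78% and 12% and Cd3g in 11.7% and 15.85%. Cd4, Cd5, Cd6, Cd8a, Cd8b1 and Bcl11b were each above 0 in at most 6.01%. Pdcd1, the targeted gene, was above 0 in 9 WT cells (2.5%) and 47 PD-1-/- cells (12.8%), while its mean over all kept cells was 14.4 RPKM in WT and 13.9 in PD-1-/- (log2 ratio -0.04). A value per gene does not tell which exons the reads came from, so it does not check the genotype label. The authors report a partial deletion of the gene that prevents the protein, so Pdcd1 in PD-1-/- cells stands for transcript only. The 9 such cells of the WT plate all came from its top 2 rows, A and B, and 8 of them had Cd3d, Cd3e or Cd3g.

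Since Cish is the gene with the most marked pattern below, and since SOCS family genes are known targets of STAT proteins, the start-site windows of the 9 genes were searched for TTCNNNGAA, the palindrome that STAT dimers bind (it reads the same on both strands). The windows span 250 bases before to 50 bases after each RefSeq gene start in GRCm38.p6, and 13 of them belong to the 9 genes. Of 32851 windows of the same length over all genes, 8.3% held at least 1 match and 0.457% at least 2. Cish held 2 matches, Socs3 held 1, and the windows of the other members held none. The sequences of both are shown 5′ to 3′ with the matches in capitals, for Cish (chr9:107296409-107296708, plus strand) and Socs3 (chr11:117969317-117969616, minus strand).
Cish: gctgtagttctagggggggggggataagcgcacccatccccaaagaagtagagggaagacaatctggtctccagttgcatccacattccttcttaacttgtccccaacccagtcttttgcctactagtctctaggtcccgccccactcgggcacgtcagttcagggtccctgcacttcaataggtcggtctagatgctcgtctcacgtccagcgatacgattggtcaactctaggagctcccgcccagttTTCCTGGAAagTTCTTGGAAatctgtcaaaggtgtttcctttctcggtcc
Socs3: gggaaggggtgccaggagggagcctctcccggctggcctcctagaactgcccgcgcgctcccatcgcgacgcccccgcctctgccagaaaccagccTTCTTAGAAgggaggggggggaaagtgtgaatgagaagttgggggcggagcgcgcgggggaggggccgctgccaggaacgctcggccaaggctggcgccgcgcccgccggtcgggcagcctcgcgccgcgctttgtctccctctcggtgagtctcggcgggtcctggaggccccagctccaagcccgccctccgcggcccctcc
A match describes letters in these windows and is no measured binding site. The motif was picked with the Cish values known and for a family of known STAT targets, so the matches are not independent of that choice. Whether they bear on the Cish values was not tested.

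All 9 genes were detected in a part of the NK cells of both genotypes, from 16.9% to 66.7% of them. Inpp5d was present most often, in 66.7% of WT cells (95% interval 61.5 to 71.5) and 66.1% of PD-1-/- cells (95% interval 61 to 71). Ptpn6 followed in WT with 57.2% (51.9 to 62.4), against 55.7% (50.5 to 60.9) in PD-1-/-. Dgkz was near the middle in both genotypes, at 51.1% (45.8 to 56.4) and 51.1% (45.8 to 56.3). In WT the intervals of neighbours from Inpp5d down to Cblb overlapped, whereas Cblb and Dgka were separated, as were Dgka and Cish.

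Socs1 and Cblb showed the widest gaps in share between the pools. Socs1 was present in 50.3% of WT cells (95% interval 45 to 55.6) and 60.1% of PD-1-/- cells (54.9 to 65.2), a gap of 9.83 percentage points. The gap kept its direction in every quartile of detected genes, with 29.5% against 47.9% of cells in the lowest quartile and 61.8% against 69.9% in the highest. Cblb went the other way, with WT at 46.9% (41.7 to 52.3) and PD-1-/- at 41.3% (36.2 to 46.5). In both genes the intervals of the 2 genotypes overlapped.

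The remaining 4 genes were in the minority of cells. Dgka was present in 33.3% of WT cells (28.5 to 38.5), against 37.7% (32.7 to 42.9) in PD-1-/-. Cish was present in 20.3% (16.2 to 24.8) and 24.3% (20 to 29.1). Ptpn11 was present in 20% (16 to 24.5) and 18.3% (14.5 to 22.7), and Socs3 in 18.3% (14.5 to 22.7) and 16.9% (13.2 to 21.2). The intervals of Cish, Ptpn11 and Socs3 overlapped one another within each genotype, and none of them reached that of Dgka.

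**Figure D1:**
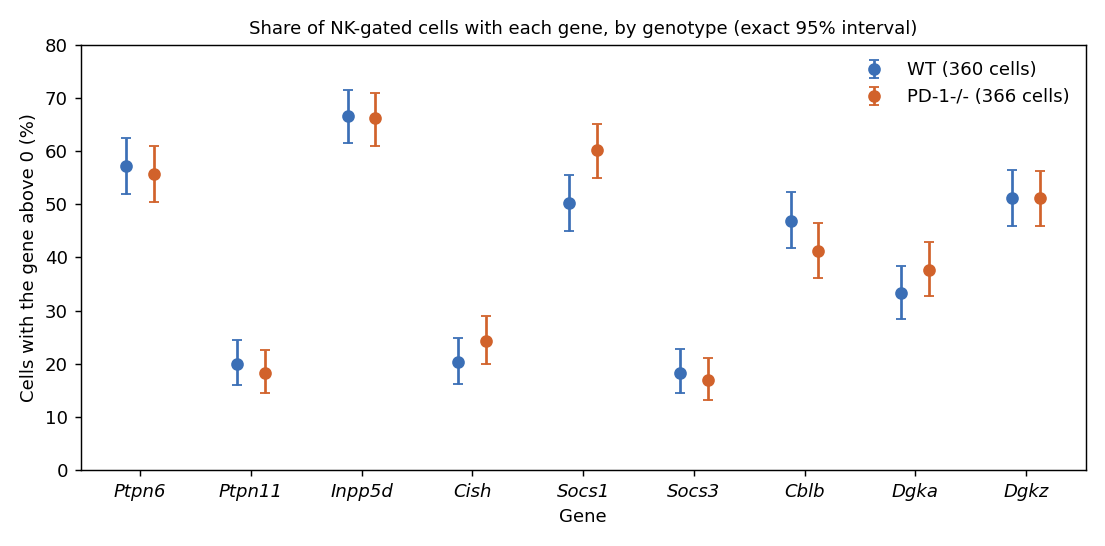
Share of kept cells with each gene above 0 (vertical axis, percent) in WT (blue) and PD-1-/- (orange), with exact 95% intervals as bars. The genes stand from left to right in order of role, Inpp5d is the highest in both genotypes, and Socs1 shows the widest gap, at 50.3% and 60.1%.

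Level is given as RPKM, reads scaled to transcript length and to the mapped reads of the well, which is per length and so can be compared between genes. The mean over all kept cells was highest for Ptpn6, at 264.3 RPKM in WT and 303.5 in PD-1-/-. In the cells that had it, Ptpn6 ran from 1.31 to 2159 RPKM in WT, with a median of 370.3, and from 1.05 to 2645 in PD-1-/-, with a median of 419.9. Ptpn11, which shares its SH2 domains and catalytic fold with Ptpn6, was far lower, with means of 12.9 and 9.33 RPKM and medians of 51.7 and 42.5 RPKM in the cells that had it.

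Dgka and Cish had the next highest medians in the cells that had them. Median Dgka was 200.9 RPKM in the WT cells that had it (0.897 to 1096) and 221.9 in those of PD-1-/- (0.809 to 1791). Median Cish was 225.3 RPKM in 73 WT cells (1.17 to 1088) and 283.2 in the 89 cells of PD-1-/- (0.996 to 1311). By contrast Inpp5d, the most widely present, had medians of 77.1 (0.592 to 517) and 81.5 RPKM (0.384 to 519), and means over all cells of 63.8 and 63.1.

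Among the SOCS genes, Socs1 had medians of 105.5 RPKM in WT (2.16 to 805) and 120 in PD-1-/- (1.63 to 489), and the middle 50% of the cells with Socs3 lay between 28.2 and 163.3 RPKM in WT (full range 0.964 to 460) and between 56.8 and 149.4 in PD-1-/- (0.795 to 484). Dgkz had medians of 74.6 (0.785 to 425) and 68.2 RPKM (0.663 to 366.9). Cblb had the lowest medians, 43.5 (0.431 to 291.1) and 35.7 RPKM (0.326 to 373.8). For every member the ranges of the cells with the gene overlapped between genotypes. Between 5 and 19 cells per gene and genotype rested on 1 recovered read, and most cells rested on 10 or more, for example 52 of the 66 WT cells with Socs3 and 79 of the 89 PD-1-/- cells with Cish.

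**Figure D2:**
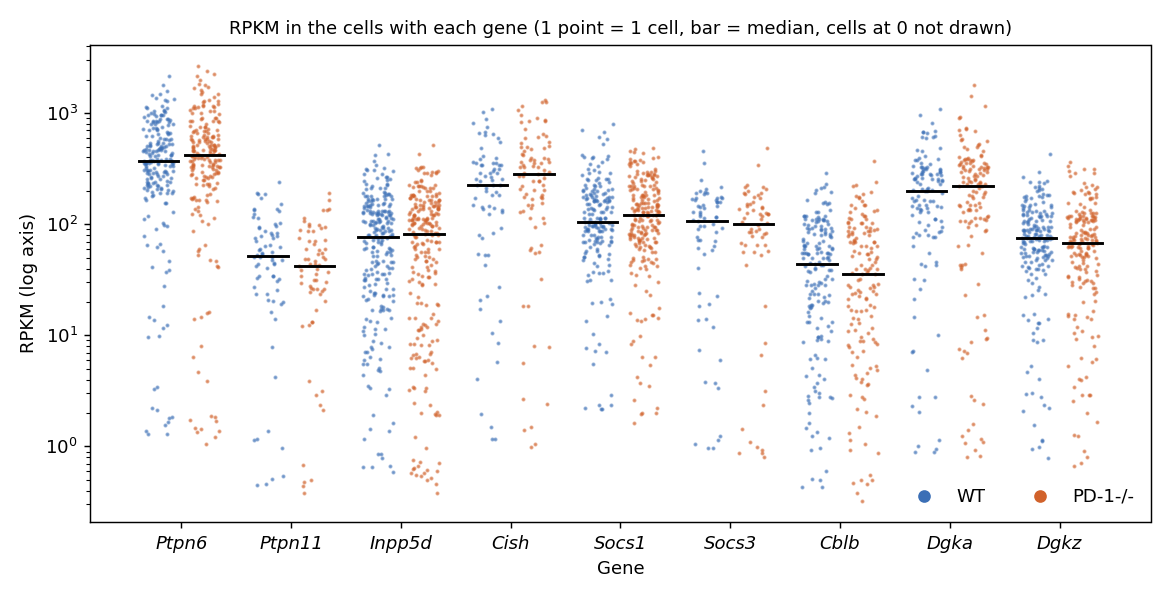
RPKM of each gene (log axis) in every kept cell with a value above 0, in WT (blue) and PD-1-/- (orange), with the median as a black bar. The points of the 2 genotypes overlap for each gene, and median Ptpn6 is the highest, at 370.3 RPKM in WT and 419.9 in PD-1-/-.

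The first comparison was of mean levels between the genotypes, called at a log2 ratio (PD-1-/- over WT, pseudocount 1) of at least 0.5 in size. Only Cish passed, with 54.96 RPKM in WT and 85.5 in PD-1-/-, a log2 ratio of 0.63. Among the 12030 entries whose mean reached 1 RPKM in at least 1 genotype, 13.5% were called higher and 16.5% lower, so 1 of 9 members is no more than the background. Socs1 (74.2 and 85.7 RPKM, log2 ratio 0.21), Dgka (76.98 and 97.9, 0.34) and Ptpn6 (0.20) stood above 0. Ptpn11 (-0.43), Cblb (-0.22), Socs3 (-0.11), Dgkz (-0.05) and Inpp5d (-0.02) stood below it. The median of the 9 was -0.02, beside -0.03 over all tested entries.

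The Cish value moved with the part of the pool that had Cxcr6, a chemokine receptor of tissue-resident lymphocytes. Cxcr6 was above 0 in 7.78% of WT cells, against 21% in the PD-1-/- pool. In cells without Cxcr6, mean Cish was 45.3 RPKM in WT and 53.4 in PD-1-/-, a log2 ratio of 0.23. In cells with Cxcr6 it was 205.8 RPKM in PD-1-/-, a log2 ratio of 0.28 over WT. The Cish ratio was 0.78 in the upper plate rows (A to H) and 0.44 in the lower ones (I to P), where it was not called. Neither the part of Cxcr6 nor that of the plate rows in the pooled ratio was tested.

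The second comparison asked whether a member was present more or less often in cells with Ifng, the gene of the main effector cytokine of NK cells. A member was called where its share differed by at least 10 percentage points in both genotypes. No member was called higher, with 0.121% of 8265 tested entries called, and none lower, with 0.0726% called. Socs1 stood out in WT alone, at 62.4% of the 93 cells with Ifng (51.7 to 72.2) and 46.1% of those without (40 to 52.3). In PD-1-/- the same shares were 62.3% (52.7 to 71.2) and 59.1% (52.8 to 65.3). Ifng itself was present in 25.8% of the WT pool and 31.1% of the PD-1-/- pool. The 2 gaps, 16.3 and 3.15 points, were not tested against each other.

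Ptpn11 was more often present with Ifng in both genotypes, by 9.28 points in WT and 7.81 in PD-1-/-, short of the 10 points. In PD-1-/- the gap was -0.291 points in the upper plate rows (A to H) and 16.9 in the lower ones (I to P). Ptpn6 stood 8.38 and 4.41 points higher. Inpp5d and Dgka had opposite signs in the 2 genotypes, with 10.1 and -5.58 points for Inpp5d and -10.1 and 6.39 for Dgka. The median gap of the 9 was 8.38 points in WT and 3.15 in PD-1-/-, beside -0.169 and 0.48 over all tested entries. Those entries were present in at least 5% of cells of each genotype and were not matched to the members for share. Cells with and without Ifng had similar medians of detected genes, 2261 and 2265 in WT and 2303.5 and 2237.5 in PD-1-/-.

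The third comparison was with Gzmb, which encodes granzyme B, a protease of cytotoxic granules. Socs1 was called higher, 1 of 9 members beside 2.06% of 8265 entries, and this call was lost in wells of 1500 to 3000 genes, where the WT gap was 8.32 points. It was also lost with cells thinned to 100000 reads, where the gap was 17.2 points in WT and 6.6 in PD-1-/-, and with presence of both genes set at 10 RPKM, where the PD-1-/- gap was 8.435 points. Socs1 was present in 53.2% of the WT cells with Gzmb (47.4 to 59) and 36.9% of the 65 without (25.3 to 49.8). In PD-1-/- the shares were 61.8% (56.2 to 67.2) and, of the 49 cells without Gzmb, 49% (34.4 to 63.7). Cish had the same direction, in 22% and 12.3% of WT cells with and without Gzmb and in 26.8% (85 cells) and 8.16% (4 of 49 cells) in PD-1-/-, the WT gap of 9.73 points falling just short. Thinned to the same depth the Cish gaps were 13.03 and 16.4 points, so that Cish was then called and Socs1 was not. No member was called lower, beside 0.169% of entries.

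Socs3 and Cblb had lower shares with Gzmb in PD-1-/- cells, and neither was called. Socs3 was in 15.5% of the PD-1-/- cells with Gzmb and 26.5% of those without, while in WT the shares were 18.3% and 18.5%. Without the cells that had a CD3 gene, which were 21.8% of the PD-1-/- cells with Gzmb and 28.6% of those without, the PD-1-/- shares of Socs3 were 16.5% and 17.1%. Cblb was in 39.1% and 55.1% of the PD-1-/- cells, and in 47.1% and 46.2% of the WT cells. Cells with Gzmb had more detected genes, 2293 against 2156 in WT and 2298 against 2115 in PD-1-/-.

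The comparison with Pdcd1, the gene of PD-1, was made in PD-1-/- cells only, since the 9 WT cells are too few. Cish and Ptpn6 were called higher, 2 of 9 members, where 12.4% of 8266 entries were. Cish was in 42.6% of the 47 cells with Pdcd1 (28.3 to 57.8, 20 cells) and in 21.6% of those without (17.2 to 26.6). Its mean was 222.8 RPKM with Pdcd1 and 65.3 without. Ptpn6 was in 68.1% (52.9 to 80.9) and 53.9% (48.3 to 59.5), while its mean was 282.8 RPKM with Pdcd1 and 306.6 without. The Ptpn6 gap was 7.46 points in plate rows A to H, where it was not called.

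No member was called lower with Pdcd1, beside 2.47% of entries. Dgkz, at 42.6% with and 52.4% without, and Socs3, at 8.51% (4 of 47) and 18.2%, came within a point of the threshold. Cells with Pdcd1 had 2371 genes at the median and cells without it 2232, and 36.2% and 20.7% of them had a CD3 gene. Without the cells that had Cd3d, Cd3e or Cd3g, the gaps were 26.5 points for Cish, 18.2 for Ptpn6 and 10.5 for Cblb. In the same cells Dgkz stood at -24.7 points and Socs3 at -11.1, both past the threshold, with 30 cells with Pdcd1 left. In the 9 WT cells with Pdcd1, Ptpn6 was present in 7, Inpp5d in 6, Socs1 in 5, Cish in 4, Ptpn11, Dgka and Dgkz in 3 each, Cblb in 2 and Socs3 in 1.

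**Figure D3:**
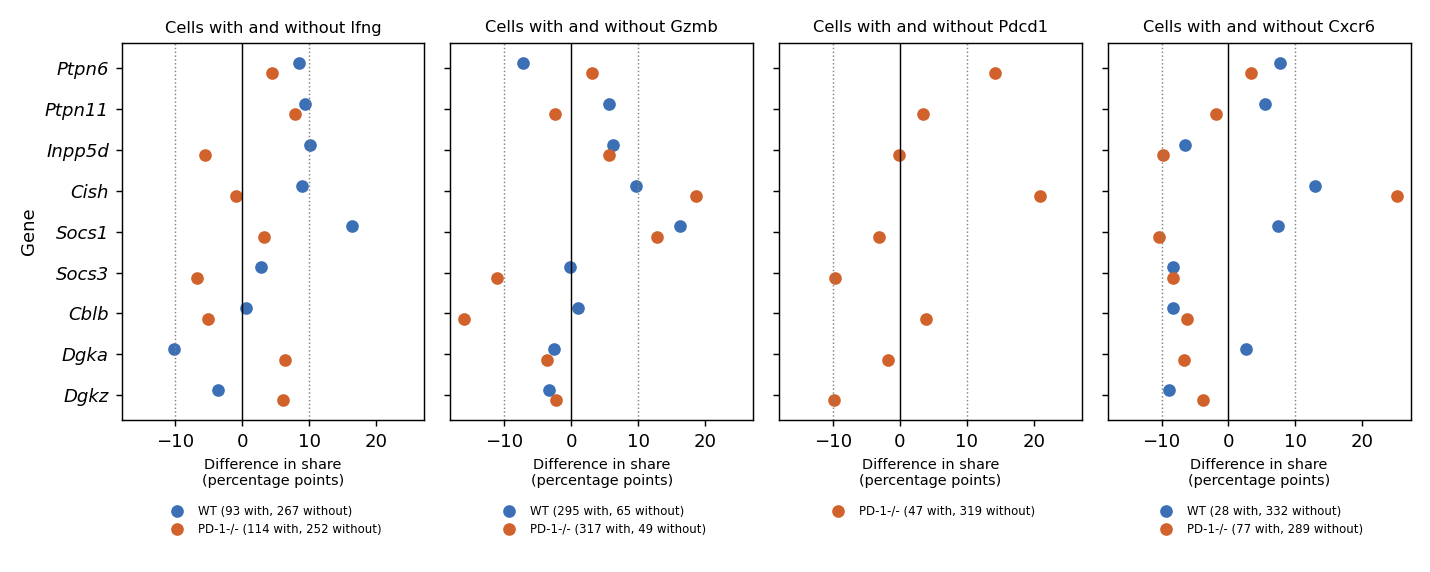
Difference in the share of cells with each gene between cells with and without Ifng, Gzmb, Pdcd1 or Cxcr6 (horizontal axis, percentage points), in WT (blue) and PD-1-/- (orange), with dotted lines at 10 points either side of 0 and no WT points for Pdcd1. Cish stands right of 0 in both genotypes for Gzmb and Cxcr6 and in PD-1-/- for Pdcd1, while for Ifng its points lie at 8.9 in WT and -0.919 in PD-1-/-.

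The last of the genes that split the NK cells was Cxcr6, named above. Cish was present in 44.2% of the 77 PD-1-/- cells with Cxcr6 (32.8 to 55.9) and 19% of those without (14.7 to 24). The WT shares were 32.1% of 28 cells (15.9 to 52.4) and 19.3% (15.2 to 23.9). It was 1 of 9 members called higher, beside 1.6% of entries, and no member was called lower, beside 0.835%. A CD3 gene was above 0 in 64.3% of the WT cells with Cxcr6 and 14.2% of those without, and in 42.9% and 17.3% in PD-1-/-. Of the WT cells with Cxcr6, 50% lay in plate rows A and B, against 7.23% of those without. In cells without any CD3 gene the Cish call was lost, with a gap of 21.2 points in PD-1-/- and 1.05 in WT, where 2 of the 10 cells left with Cxcr6 had Cish. It was also lost in rows A to H, in wells of 1500 to 3000 genes and without the cells that had Pdcd1. Socs3 stood lower with Cxcr6 by 8.26 and 8.3 points, short of the threshold, and its WT gap was 0.0662 points in rows A to H. Inpp5d was lower too, at -6.45 points in WT and -9.725 in PD-1-/-, also short of it. Inpp5d passed the threshold when thinned to 100000 reads (-11.2 and -10.6). It also passed in cells without any CD3 gene (-18.1 and -16.1, with 10 WT cells with Cxcr6).

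**Figure D4:**
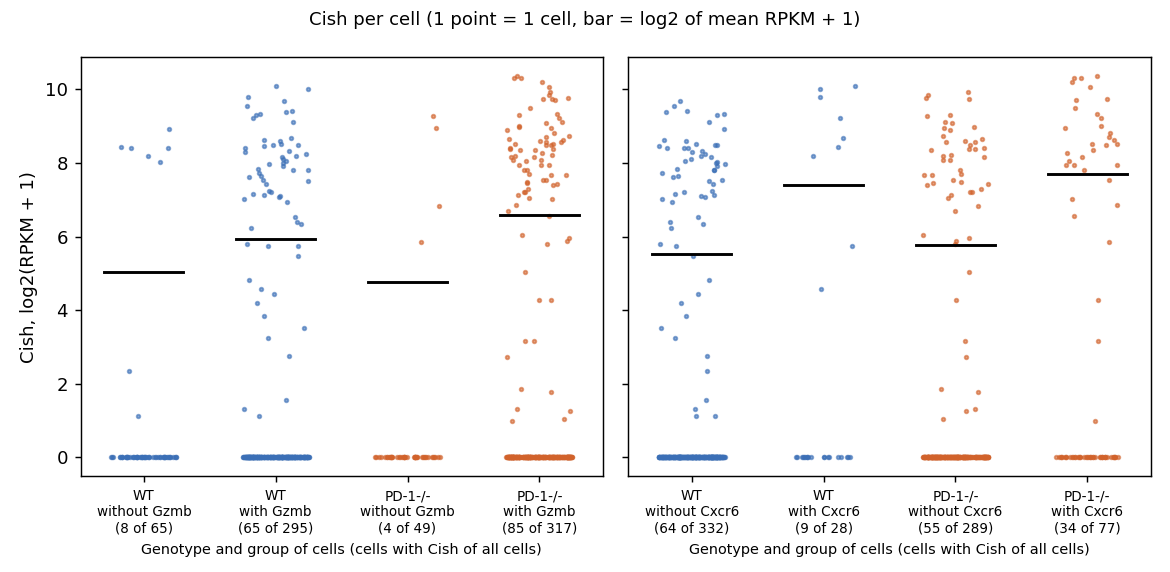
Cish in each cell as log2(RPKM + 1), for cells without and with Gzmb (left) and Cxcr6 (right) in WT (blue) and PD-1-/- (orange), with the log2 of the mean RPKM plus 1 as a black bar and the count of cells with Cish under each column. The share of cells above 0 is larger with Cxcr6 (9 of 28 and 34 of 77 cells) than without (19.3% and 19%), and in PD-1-/- the mean is 205.8 RPKM with Cxcr6 and 53.4 without.

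Although the gate was CD3-, a CD3 gene was above 0 in 18.1% of WT cells and, in PD-1-/-, in 22.7%. Dgka, which T cells express, was in 55.4% of the 65 WT cells with a CD3 gene (42.5 to 67.7) and 28.5% of those without (23.4 to 34). The PD-1-/- shares were 43.4% of 83 cells (32.5 to 54.7) and 36% (30.4 to 41.9). No member passed 10 points in both genotypes upwards, beside 0.641% of 8263 entries, or downwards, beside 0.399%. Inpp5d was at -4.38 points in WT and 11.1 in PD-1-/-, and Cblb at -14.1 and 2.74.

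A typical cell held 4 of the 9 genes, the median in both genotypes, and the means were 3.64 in WT and 3.72 in PD-1-/-. Between 3 and 5 of the genes were present in 65.6% of WT cells, against 63.7% in PD-1-/-. None of the 9 was found in 8 WT and 5 PD-1-/- cells, and no cell held all 9. The number grew with the number of detected genes, whose median in WT cells was 1926 with 1 member and 2860 with 7.

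**Figure D5:**
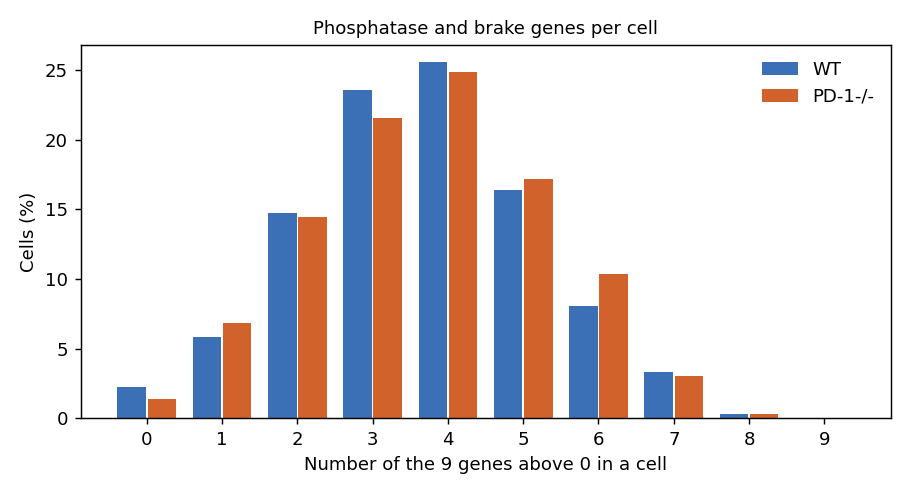
Percent of cells (vertical axis) by the number of the 9 genes above 0 in the cell, in WT (blue) and PD-1-/- (orange). Both genotypes peak at 4 genes, at 25.6% in WT and 24.9% in PD-1-/-.

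Within cells the members varied largely apart from one another. Over the 36 pairs, Pearson's r of log2(RPKM + 1) ran from -0.09 to 0.24 across the WT cells and from -0.10 to 0.14 across those of PD-1-/-, with a median of 0.01 in each. Cells of a pool share a plate and differ in depth. The highest value in WT was that of Cish with Socs1 (0.24), a pair that stood at 0.10 in PD-1-/-. Cish with Socs3, the other SOCS gene, stood at 0.07 in WT and -0.10 in PD-1-/-. Socs1 was in 75.3% of the WT cells with Cish and 43.9% of those without, and in 67.4% and 57.8% of the PD-1-/- cells. For Dgka and Dgkz, the 2 diacylglycerol kinases, Dgkz was in 61.6% and 44.7% of the PD-1-/- cells with and without Dgka, but in 50% and 51.7% of the WT cells. Inpp5d was in 71.4% and 60.4% of WT cells with and without Ptpn6, and in 69.6% and 61.7% of PD-1-/- cells.

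For each member the genes with the most similar pattern were sought among 6727 genes above 0 in at least 10% of cells, and named where r was at least 0.15 in both genotypes. Ptpn6 had the highest such value, with Xcl1, a chemokine of activated NK cells, at 0.37 in WT and 0.25 in PD-1-/-. Its next 2 were Grcc10 (0.21 and 0.22) and Phb2 (0.19 and 0.21), which are the protein-coding genes on either side of Ptpn6 on chromosome 6 in RefSeq and do not overlap it there. Cish paired with Klk8 (0.21 and 0.24) and Inpp4b (0.19 and 0.26), a lipid phosphatase. Socs1 paired with Gem (0.29 and 0.18) and Pilrb1 (0.26 and 0.18), Dgka with Sidt1 (0.20 and 0.19), Cd7 (0.19 and 0.18) and Gpi1 (0.20 and 0.15), Inpp5d with Sh2d2a (0.19 and 0.18) and Cblb with Eef2 (0.16 and 0.15). These values are weak, and they describe these cells only.

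Of 57 other brakes of lymphocyte signaling, 53 reached the mean needed for the comparison, and of these 6 were called higher and 3 lower in PD-1-/-, beside the 13.5% and 16.5% of all entries. Their median log2 ratio was 0.11. The higher ones were Inpp4b (10.02 and 23.2 RPKM, log2 ratio 1.14), Inpp4a (0.99), Spred1 (0.86), Sit1 (0.85), Ptprj (0.69) and Dgkh (0.61), and the lower ones were Dusp1 (84.3 and 51.8, -0.69), Ubash3b (55.3 and 34.8, -0.65) and Socs5 (-0.54). Sit1 rested on 4 and 5 cells. The highest means were those of the adaptor Dok2 (360.6 RPKM in WT, log2 ratio 0.01) and the phosphatase Ptpn22 (300.1 and 333.8). Next came the phosphatase Ptpn18 in WT (259.3 and 234.4) and Dusp2, a phosphatase of MAP kinases, in PD-1-/- (218.8 and 291.4). None of these 4 was called.

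Of 34 genes whose products these brakes restrain, all 34 were tested. Of these, 3 were called higher and 1 lower, beside the 13.5% and 16.5% of all entries, and their median log2 ratio was 0.02. Plcg1 (1.62 and 5.52 RPKM, 7 and 18 cells, log2 ratio 1.32), Il15ra (0.69) and Pik3cg (0.56) were higher and Sos1 (-0.51) was lower. The most abundant were the cytokine receptor chains Il2rb, in 98.6% and 99.2% of cells, and Il2rg, in 95% and 97.8%, followed by the kinase Lck, in 91.1% and 89.9%. Their means stood close between the genotypes, at 1952 and 2093 RPKM for Il2rb, 1471 and 1546 for Il2rg and 686.5 and 684.1 for Lck.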

How the data were processed

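The deposited tables hold RPKM values, which the authors made per gene and well. The submitters' processing notes name TopHat and Cufflinks and the builds mm9 and mm10, without versions or roles. Well titles gave the genotype, and every column was mapped to a sample. The labels state that 382 cells were sorted, and the tables hold 768 wells, 384 per genotype. Wells of 1000 to 3500 detected genes were kept, 360 in WT and 366 in PD-1-/-. No doublet caller was run. RPKM steps were converted to whole reads for 10836 genes, and 97.2% of 766095 low values came out whole within a relative 0.0003, which gave the depths and the thinning (seed 42). Kept cells had 1384 to 519280 recovered reads in WT and 1920 to 578737 in PD-1-/-.

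A gene was present where its RPKM was above 0. Associations covered genes present in at least 5% of cells of each genotype. The entries set beside the members were not matched to them for share, which limits how far a gap in points can reach. No test was run between genotypes, because each is 1 pool. The members, lists, markers and thresholds were chosen with earlier results of these data known. Genes named beyond the members are those that split cells, the list genes past the fold or among the 3 highest means of their list in a genotype, markers, and the 3 most similar genes per member. Alternatives are given at the end. Python 3.11.15, numpy 2.4.6 and scipy 1.17.1 were used. The calls between genotypes, the calls of association and the recovery of reads were checked on simulated data, and the other statistics were not.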

Additional observations from a re-analysis of the deposited data

How the results depend on the processing

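No paired analysis was possible because each genotype is 1 pool on 1 plate and well numbers only name wells. The number of members called higher with Gzmb (1) was 2 with every well kept, 0 with wells of 1500 to 3000 genes and 3 in rows A to H. It stayed at 1 when thinned and at 10 RPKM or more, but was then Cish in place of Socs1. The 2 called higher with Pdcd1 (Cish and Ptpn6) were Cish and Ptpn11 in rows A to H. Cblb was called higher as well without CD3 cells (10.47 points) and without rows A and B (10.5 points). The number called lower with Pdcd1 (0) was 1 with every well kept, wells of 1500 to 3000 genes, without rows A and B, in rows A to H, at 1 RPKM or more, and thinned, 2 without CD3 cells and when standardised, and 3 in rows I to P. Alternatives for Cxcr6 and CD3 were chosen after seeing the data. With Cxcr6, the 1 called higher (Cish) became 0 with wells of 1500 to 3000 genes, without CD3 cells, in rows A to H and without Pdcd1 cells. The 0 called lower became 1 without CD3 cells and thinned (Inpp5d), in rows I to P (Socs3) and at 10 RPKM or more (Dgkz). With CD3, the 0 called higher became 1 without rows A and B and 2 in rows A to H. Counts of members called with Ifng stayed at 0 in each alternative. Between genotypes, the 1 member called (Cish) became 2 without CD3 cells and in rows A to H, 0 in rows I to P and without Cxcr6, and 4 in cells with Cxcr6. The 9 other brakes called became 14 without CD3 cells, 19 in rows A to H, 17 in rows I to P, 15 at a pseudocount of 0.1, 3 at 10, 14 scaled to 1 sum, 3 at a mean of 10 RPKM and 27 with Cxcr6. The 4 restrained genes called became 2 without rows A and B, 7 in rows A to H, 1 at a pseudocount of 10, 2 at a mean of 10 RPKM, 1 thinned and 12 with Cxcr6. The share of all entries called moved as well, from 13.5% higher and 16.5% lower in the main setting. It was 17.4% and 15.2% without CD3 cells, 16.3% and 28.3% in rows A to H and 23.5% and 16.8% in rows I to P. It was 1.81% and 1.93% at a pseudocount of 10, and 7.61% and 7.25% at a mean of 10 RPKM. In cells with Cxcr6 it was 32.6% and 34.1%. The cause of these changes was not tested. The log2 ratio of mean Cish kept its direction between genotypes under each alternative run. Its share of cells did not, at 22% in both genotypes in rows I to P. In the highest quartile of detected genes the share was 36% in WT and 23.7% in PD-1-/-. The difference in share of Ptpn11 with Ifng turned to -0.291 points in PD-1-/- in rows A to H. The gap in share of Ptpn11 with Pdcd1 in WT cells turned to -4.81 points when thinned, where 7 cells with Pdcd1 were left.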
